A study of Mus musculus with 24 samples.

Results

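The interferon response genes are a set of 47 genes that cells are known to switch on after contact with interferon or with foreign nucleic acid, together with the transcription factors that control them. A gene was taken as a member where the gene name given for a probe on the array was that of one of the 47 listed genes. All 47 were found, on 73 of the 41174 probes, among 27398 gene names in all. By role they were 7 transcription factors, 4 RNA and DNA sensors, 3 regulators of the response, 14 antiviral effectors, 6 interferon-inducible GTPases, 3 Schlafen genes, 5 genes of MHC class I antigen processing and 5 other interferon-induced genes.

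Interferons are secreted proteins that bind receptors on the cell surface and signal through JAK kinases to STAT proteins. Type I interferons act mainly through a complex that holds STAT2 and IRF9 and binds the interferon-stimulated response element (ISRE) in promoters, and interferon gamma acts mainly through the gamma-activated site (GAS). In injured peripheral nerve and in the dorsal root ganglion (DRG), where the cell bodies of sensory neurons lie among satellite glia, Schwann cells and macrophages, immune cells and resident cells can both express these genes.

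The samples were L4 and L5 DRGs from adult male C57BL/6J mice, either *Nfil3* -/- knockout (KO) mice or their *Nfil3* +/+ wildtype (WT) littermates. The left sciatic nerve had been transected and its ends sutured together, and DRGs were taken at day 2 or day 5 after the lesion, while control DRGs came from the non-injured side of the body, not from unoperated mice. NFIL3 is a transcriptional repressor, and the question behind the design was which genes of injured DRGs respond differently when it is absent. The 6 groups (WT control, WT day 2, WT day 5, KO control, KO day 2 and KO day 5) held 4 samples each, 2 labelled with Cy3 and 2 with Cy5, on 12 Agilent whole mouse genome arrays on 3 slides, so that 2 different samples shared each array. The deletion was made with a Cre driven by the CMV promoter, so that *Nfil3* was absent from every cell type and not from neurons alone. The labels call the tissue DRG neurons, but the methods describe whole ganglia, and 20 of 20 listed macrophage markers were well above background in every sample. KO control replicate 4 is a control by its title and source name but carries day 5 in another label. Its *Atf3* signal, 9.66 on the log2 scale, lay among the controls (7.25 to 9.98, n = 8) and below all 16 lesioned samples (12.94 to 14.10). Its signal of *Sprr1a*, another injury marker, was 11.43, against 8.15, 5.66 and 5.48 in the other KO controls. For *Sprr1a* WT control replicate 4 read 11.68 and the lowest lesioned sample 12.60. *Nfil3* read 7.59 in KO control replicate 4, the highest KO value, against 2.94, 3.80 and 4.37 in the other KO controls. Without this sample 7 members in place of 9 passed at day 5 over both genotypes and 2 in place of 3 in KO mice. The number of members that passed in the other comparisons did not change.

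Between 54.6% and 72.4% of probes were well above background in a sample, the only measure of depth that these arrays give. *Nfil3* itself read 8.44 to 11.09 in the 12 WT samples and 2.82 to 7.59 in the 12 KO samples, without overlap. Some signals differed with the other sample on the array. Controls that shared an array with a lesioned sample read 9.04 to 9.98 for *Atf3* and 8.15 to 11.68 for *Sprr1a*. Controls that shared one with another control read 7.25 to 7.69 and 5.48 to 6.12. At days 2 and 5 *Nfil3* in KO mice read 5.30 to 6.23 beside a WT sample and 2.82 to 4.14 beside a KO sample. KO controls read 3.80 and 4.37 beside WT and 2.94 and 7.59 beside KO samples. The cause was not tested. Values below are log2 signals of the probe with the highest mean signal of each gene, and a gene is said to have risen or fallen where limma's moderated test, adjusted by Benjamini-Hochberg over all probes, gave an adjusted p under 0.05. Of the 47 members, 44 were well above background in all 24 samples. *Oas3* was so in 2 samples, *Slfn8* in 4 and *Mx1* in 8. The near-identical copies within the Oas, Ifit, Gbp and Slfn families may share signal on one probe, which was not tested.

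The promoters of these genes are shown because they carry the sequence through which most members are known to be controlled, and no result below was drawn from them. The RefSeq table (GRCm38.p6) held a window from 250 bases before to 50 bases after the transcription start for 38 of the 47 members. The ISRE core, GAAANNGAAA on either strand with overlapping matches allowed, was found in 19 of these 38 genes (50%) and in 1079 of 27025 genes on the whole table (3.99%). The GAS motif TTCNNNGAA was found in 10 of the 38 members (26.3%) against 9.55% of all genes. The motif TTANGTAA, the core of NFIL3 binding sites, read on both strands, was in none of the 44 windows of the members and in 2.32% of all 32851 windows. Members that passed after lesion but held no ISRE core in their windows were *Irf8*, *Irf5*, *Slfn2*, *Xaf1* and *Ifi35*, and *Mx2* and *Oas2* had no window. The stretches below were chosen among genes with an ISRE core that recur in the results. The core is in capitals, and the stretches are each 70 bases long and upstream of the start site. They lie at chr3:142620574-142620643 on the plus strand for *Gbp2*, chr11:58199486-58199555 on the plus strand for *Igtp*, chr11:48871421-48871490 on the minus strand for *Irgm1*, chr19:34640774-34640843 on the plus strand for *Ifit1*, chr4:156200845-156200914 on the minus strand for *Isg15*, chr5:120907526-120907595 on the minus strand for *Oas1a* and chr2:122147518-122147587 on the plus strand for *B2m*. In *Isg15* 3 matches ran into each other, and in *Irgm1* and *Oas1a* 2 matches did.
Gbp2: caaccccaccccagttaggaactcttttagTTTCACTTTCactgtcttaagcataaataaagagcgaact
Igtp: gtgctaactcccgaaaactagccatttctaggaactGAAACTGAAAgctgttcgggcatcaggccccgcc
Irgm1: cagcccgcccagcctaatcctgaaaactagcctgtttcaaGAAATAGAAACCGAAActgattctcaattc
Ifit1: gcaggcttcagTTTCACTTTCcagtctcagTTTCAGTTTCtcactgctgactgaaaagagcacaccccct
Isg15: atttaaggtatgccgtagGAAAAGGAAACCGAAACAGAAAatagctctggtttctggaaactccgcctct
Oas1a: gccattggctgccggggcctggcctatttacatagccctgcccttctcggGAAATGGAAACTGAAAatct
B2m: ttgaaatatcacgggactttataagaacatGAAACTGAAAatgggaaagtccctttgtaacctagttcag

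A single sample, WT day 2 replicate 3, stood apart from all others in these genes. It was the highest of its group for 43 of the 47 members, where it was the highest for 28.8% of all genes, and the highest of all 24 samples for 23 members, against 7.42% of all genes. These 23 included all 6 interferon-inducible GTPases, which disrupt the membranes around intracellular pathogens, and all 5 genes of MHC class I antigen processing. *Gbp2*, a guanylate-binding GTPase, read 13.60 in this sample and 9.48, 9.68 and 9.29 in the other WT day 2 samples, a 17.3-fold difference from their mean, and between 8.94 and 11.31 in the other 23 samples. *Igtp* read 13.58 against 11.26, 11.17 and 11.17, and *Irgm1* 11.50 against 8.60, 8.56 and 7.84. The same sample exceeded the mean of the other WT day 2 samples 5.09-fold for *Psmb9*, an immunoproteasome subunit, 4.95-fold for *Zbp1*, a nucleic acid sensor, 4.08-fold for the transcription factor *Irf1* and 3.16-fold for *Isg15*, a ubiquitin-like modifier. By contrast *Mx2*, *Eif2ak2* and *Irf3* in this sample differed from that mean by 1.05-fold, 1.00-fold and 0.974-fold. The other sample on the same array, KO day 2 replicate 1, read 10.10 for *Gbp2*.

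Beyond the 47 members, the same sample was the highest of all 24 for 24 of 50 other interferon-induced genes and for 10 of 13 further genes of the MHC class I pathway. *Cxcl10*, a chemokine that attracts T cells, was 3.51-fold above the mean of the other WT day 2 samples. Markers of other cells also read higher in this sample than the mean of the other WT day 2 samples. This held for 20 of 20 macrophage markers (1.05-fold to 2.08-fold), 8 of 8 markers of plasmacytoid dendritic cells and neutrophils (1.35-fold to 3.33-fold, the highest *Ngp*), 5 of 5 B cell markers, 7 of 7 endothelial markers, 9 of 11 satellite glia and Schwann cell markers and 9 of 17 T and NK cell markers. It held for 4 of 15 sensory neuron markers and 6 of 13 interferon genes. The part of these cell types in the result was not tested.

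WT control replicate 1 was also high in these genes. It was the highest of its group for 28 of 46 members (26.2% of all genes) and the highest of all 24 samples for 8 (3.22% of all genes), namely *Irf7*, *Ifih1*, *Dhx58*, *Usp18*, *Ifit1*, *Mx1*, *Oasl2* and *Ifi44*. *Usp18*, which removes ISG15 from proteins and dampens receptor signalling, read 9.84, 6.34, 6.42 and 7.67 in the WT controls and 9.18, 7.36, 6.93 and 7.25 in the KO controls. *Ifit1*, which binds viral RNA that lacks the host cap methylation, read 10.88, 7.46, 7.90 and 9.24 in the WT controls and 10.54, 8.69, 8.01 and 8.29 in the KO controls. Replicate 1 was thus the highest of each control group for both genes, by 8.16-fold and 3.99-fold over the mean of the other 3 for *Usp18*. In WT day 2 replicate 3 the same ratio was 1.90 for *Usp18* and 1.40 for *Ifit1*. WT control replicate 1 shared high values of other members with WT day 2 replicate 3, among them *Iigp1* (5.02-fold over the other WT controls), *Bst2* (3.19-fold), *Ifit3* (2.69-fold) and *Isg15* (2.51-fold), while *Gbp2* read 9.79 there and 9.41 in the mean of the other WT controls. KO control replicate 1 was the highest of its group for 27 of 47 members (25.2% of all genes), but the highest of all 24 samples for only 3 (6.25% of all genes). WT day 5 replicate 1 was the highest of its group for 35 of 46 members, and for 26% of all genes. Both control replicates numbered 1 and WT day 5 replicate 1 were labelled with Cy3 and lay on slide 1, but on different arrays. The other channels held KO control replicate 3, KO day 2 replicate 3 and KO day 5 replicate 3. KO day 5 replicate 1, also Cy3 on slide 1, was the highest of its group for 3 of 47 members (24% of all genes). The part of dye and slide in these high values was not tested.

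**Figure D1:**
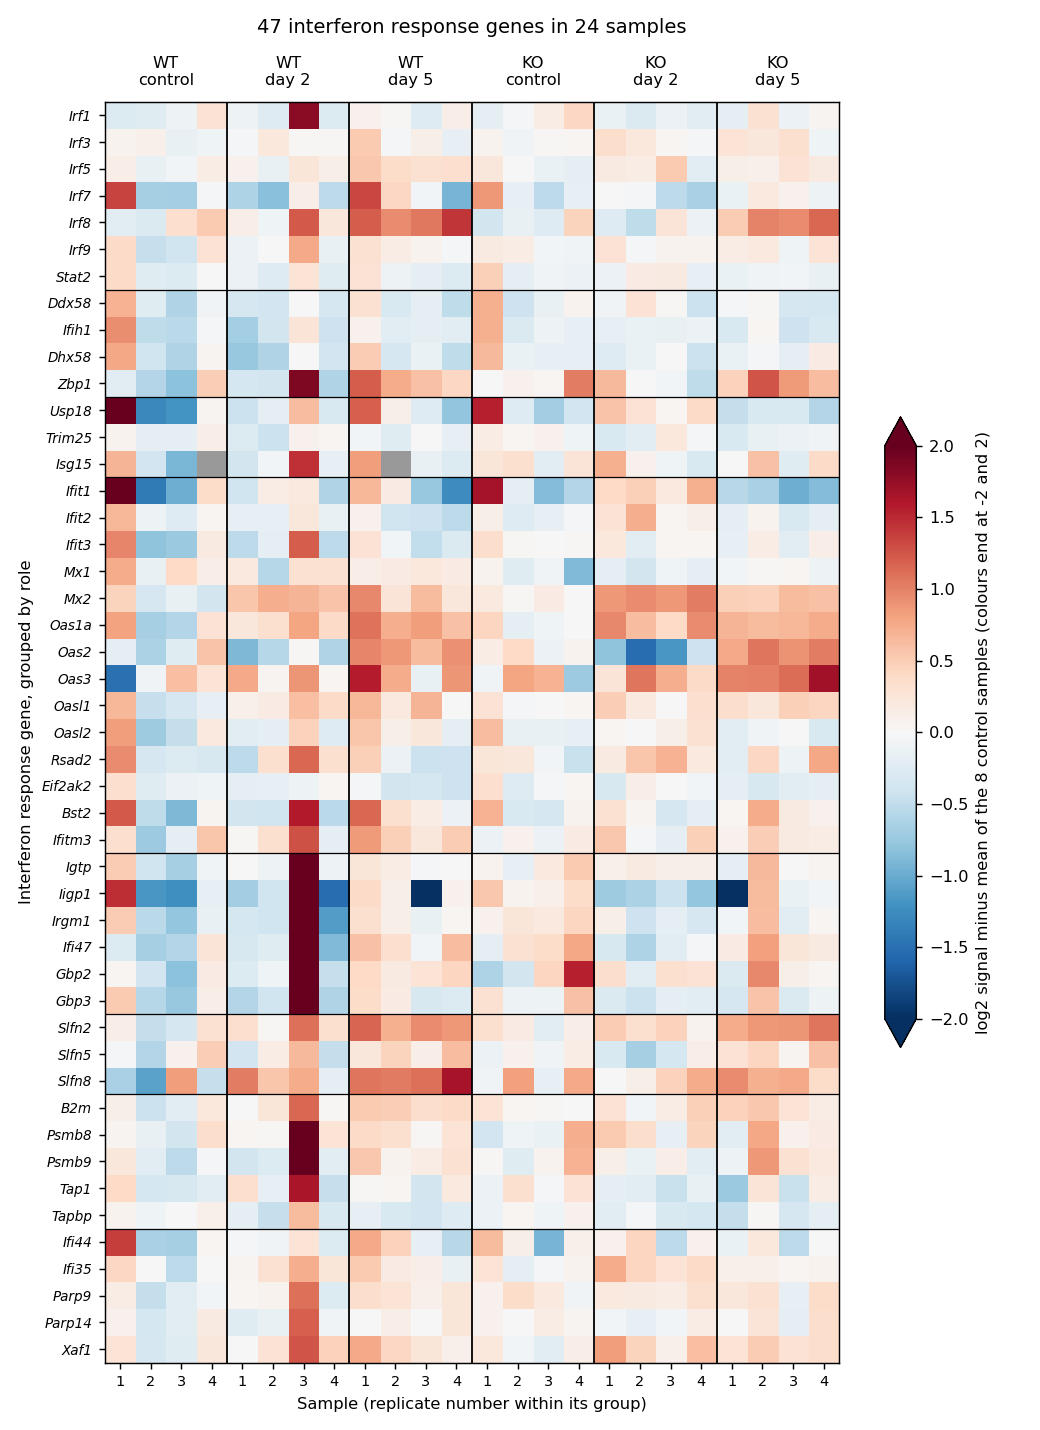
Colours give the log2 signal of each of the 47 genes (rows, grouped by role) in each of the 24 samples (columns, grouped by genotype and day) minus the mean of the 8 control samples, with missing values in grey. WT day 2 replicate 3 stands out for the GTPases and the antigen processing genes, and WT control replicate 1 and KO control replicate 1 for Usp18 and Ifit1.

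**Figure D2:**
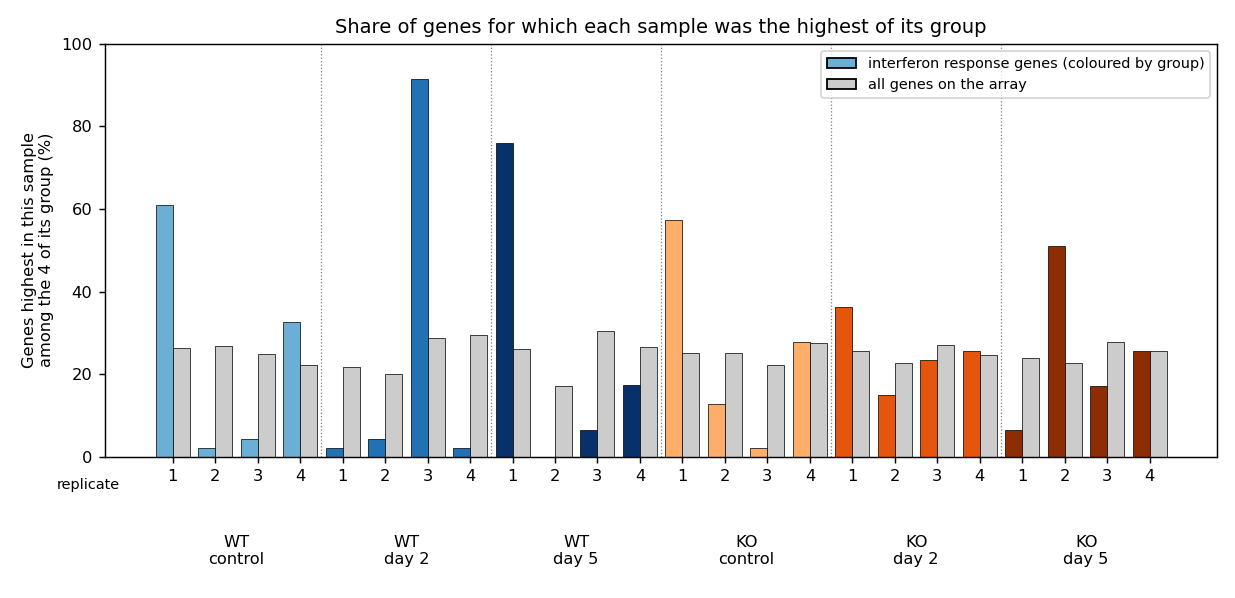
Bars give the percentage of genes for which a sample was the highest of the 4 in its group, for the interferon response genes (coloured by group) and for all genes (grey). WT day 2 replicate 3 was the highest for 43 of 47 members and for 28.8% of all genes.

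The members therefore varied more between samples of one group than most genes did. Over the 44 members well above background throughout, the median SD within groups was 0.385, against 0.186 over the 13148 genes that met the same condition. Of the 44 members 40 lay above that median, and 26 lay above 0.345, the 90th percentile of all these genes. Without WT day 2 replicate 3 the median SD of the members was 0.322. Without WT control replicate 1 and KO control replicate 1 as well it was 0.261, with 35 of 44 above the median of all genes. The members were listed by name and not by their SD, but earlier results of these data were known when they were chosen.

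After nerve lesion 9 of the 47 members passed the test at day 5 with all samples (19.1%), where 23.2% of all genes passed. With 1 or 3 samples left out that were chosen for their high values, 12 or 13 passed, where 23.6% or 21.2% of all genes did. Over both genotypes (8 lesioned against 8 control samples), the median difference over the 47 members was 0.10 at day 2 and 0.12 at day 5, beside -0.02 and -0.03 over all genes. Without WT day 2 replicate 3, WT control replicate 1 and KO control replicate 1 the medians of the members were 0.09 and 0.25, and at day 5 0.46 in WT and 0.10 in KO mice. No test of the group was made. At day 2, 5 of the 47 passed the test (10.6%), where 22.1% of all genes passed. Of these, 4 were higher and 1 lower, while 9.48% of all genes were higher and 12.7% lower. At day 5, 9 passed (19.1%), where 23.2% of all genes passed. All 9 were higher, as 10.2% of all genes were. By an unadjusted p under 0.05 the counts were 6 at day 2, 14 at day 5 and 9 between the days, where 32.4%, 31.4% and 14.9% of all genes passed. With all samples the share of members passing the adjusted test was thus below that of all genes at day 2. At day 5 it was below it over both directions and above it for genes that were higher. Injury markers showed the lesion in the same samples, with *Atf3* higher by 5.12 and 5.31 at the 2 days. The 2 days share their control samples. In pooled tissue, more cells of a type and more RNA per cell cannot be told apart.

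**Figure D3:**
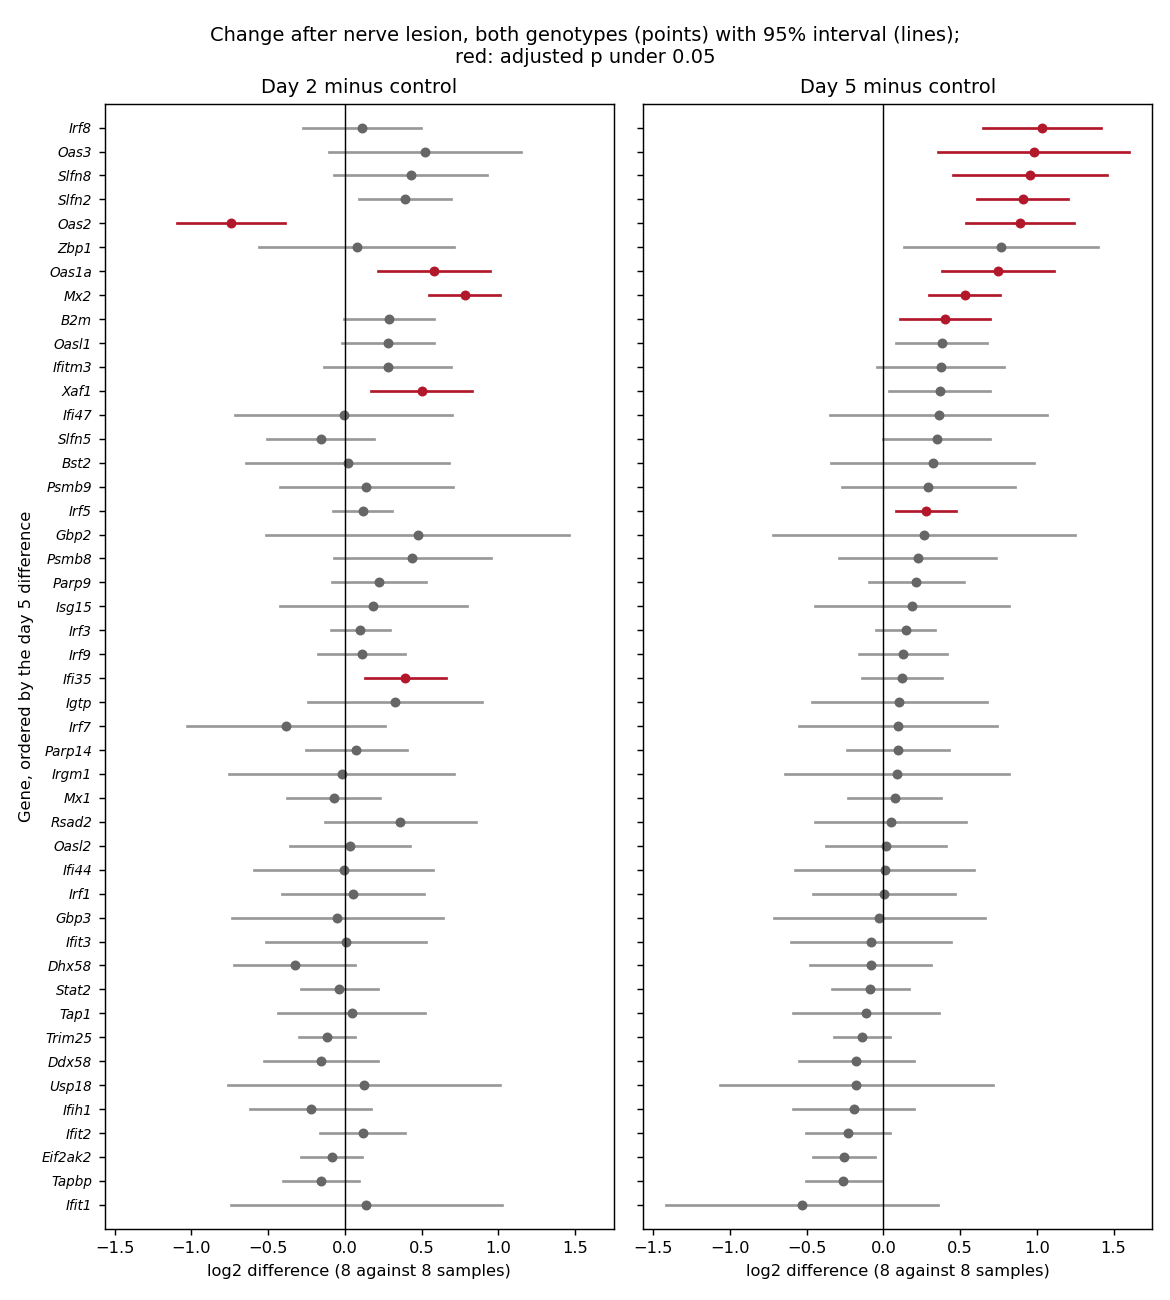
Points give the log2 difference between 8 lesioned and 8 control samples at day 2 and day 5 for each member except Iigp1, with 95% intervals as lines, and red marks an adjusted p under 0.05 (limma). Most intervals include 0, and those of Irf8, Slfn2, Oas2 and Mx2 lie above 0 at day 5.

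Among the transcription factors, *Irf8* rose at day 5. IRF8 is needed for the development of macrophages and dendritic cells and is itself induced by interferon gamma. Its signal was 7.14, 7.07, 7.69 and 7.87 in WT controls, 7.49, 7.27, 8.59 and 7.59 at day 2 and 8.57, 8.30, 8.41 and 8.79 at day 5. KO mice gave 6.99, 7.20, 7.09 and 7.79 in controls, 7.09, 6.85, 7.61 and 7.23 at day 2 and 7.87, 8.34, 8.30 and 8.51 at day 5. Day 5 and control samples did not overlap within either genotype, and the high WT day 2 value was that of replicate 3. The difference at day 5 was 1.03 ± 0.18 (SE, 8 against 8 samples, limma adjusted p = 0.00027), or 2.04-fold. From day 2 to day 5 it was 0.92 (adjusted p = 0.00614). A second *Irf8* probe gave 0.79 ± 0.15 at day 5 (adjusted p = 0.000528).

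*Irf5*, which drives inflammatory cytokines in macrophages, read 7.29, 7.01, 7.10 and 7.31 in WT controls and 7.70, 7.53, 7.47 and 7.49 at day 5, and in KO mice 7.39, 7.16, 7.03 and 6.97 in controls and 7.27, 7.26, 7.44 and 7.33 at day 5. The groups separated in WT and overlapped in KO mice, and over both genotypes *Irf5* was higher at day 5 by 0.28 ± 0.09 (limma adjusted p = 0.0349). The call was lost in 8 of 24 fits that left out 1 sample (adjusted p up to 0.0764).

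The other 5 factors did not pass at either day. *Irf7*, the factor that amplifies type I interferon production, read 8.04, 6.03, 6.01 and 6.66 in WT controls, 6.07, 5.86, 6.83 and 6.16 at day 2 and 8.02, 7.10, 6.63 and 5.77 at day 5. KO mice gave 7.56, 6.54, 6.17 and 6.53 in controls, 6.68, 6.67, 6.16 and 6.04 at day 2 and 6.56, 6.89, 6.77 and 6.59 at day 5. WT control, WT day 5 and KO control each held 1 sample over 7.5, replicate 1 in each. *Stat2* and *Irf9*, parts of the type I interferon complex, varied less. *Stat2* read 10.80, 10.16, 10.13 and 10.41 in WT controls, 10.29, 10.15, 10.68 and 10.16 at day 2, 10.69, 10.31, 10.21 and 10.13 at day 5, and 10.23 to 10.89 over the KO samples. *Irf9* read 8.84, 8.0, 8.06 and 8.75 in WT controls, 8.35, 8.46, 9.22 and 8.32 at day 2, 8.77, 8.62, 8.53 and 8.44 at day 5, and 8.37 to 8.75 over the KO samples. *Irf1*, a factor induced by interferon gamma, read 12.11 in WT day 2 replicate 3 and 10.01 to 10.71 in the other 23 samples, without separation of lesioned and control samples. Lesion differences of *Irf1*, *Stat2* and *Irf9* were 0.05, -0.03 and 0.11 at day 2 and 0.00, -0.09 and 0.13 at day 5.

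None of the 4 sensors (*Ddx58*, *Ifih1*, *Dhx58* and *Zbp1*) passed at either day by its brightest probe, and neither did the regulators *Isg15*, *Usp18* and *Trim25*. Dimmer probes of *Ddx58* and *Ifih1*, which encode the RNA sensors RIG-I and MDA5, passed as lower at day 5, by -0.55 (limma adjusted p = 0.0386) and -0.67 (adjusted p = 0.0191), beside -0.18 and -0.19 by the brightest probes. *Zbp1* read 6.51, 6.14, 5.90 and 7.21 in WT controls, 7.94, 7.47, 7.32 and 7.14 at day 5, and 6.74, 6.81, 6.77 and 7.76 in KO controls, 7.20, 7.98, 7.58 and 7.34 at day 5. Its difference at day 5 was 0.77 ± 0.30 (limma adjusted p = 0.0801), and without WT day 2 replicate 3 the same difference had an SE of 0.21 and passed (adjusted p = 0.0104). *Usp18* differed by 0.12 at day 2 and by -0.18 at day 5, with 95% intervals of -0.76 to 1.01 and -1.06 to 0.71. For *Isg15*, measured in 22 of the 24 samples, the difference was 0.19 at both days.

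Of the 14 antiviral effectors 3 changed at day 2 and 4 at day 5, where 22.1% and 23.2% of all genes did. *Mx2*, a GTPase that blocks viral particles, rose at both days. It read 7.63, 6.85, 7.03 and 6.82 in WT controls, 7.73, 7.91, 7.86 and 7.75 at day 2 and 8.13, 7.44, 7.82 and 7.41 at day 5. KO mice gave 7.38, 7.21, 7.34 and 7.19 in controls, 8.05, 8.13, 8.05 and 8.21 at day 2 and 7.66, 7.64, 7.81 and 7.76 at day 5. All 8 day 2 samples lay above all 8 controls, as 3.77% of all genes did. By limma the day 2 difference was 0.78 ± 0.11 (adjusted p = 3.01e-05), and that of day 5 was 0.53 ± 0.11 (adjusted p = 0.00126).

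*Oas2* fell at day 2 and rose at day 5. The OAS enzymes make short oligoadenylates on double-stranded RNA, which activate RNase L. The signal was 5.42, 4.97, 5.36 and 6.18 in WT controls, 4.71, 5.04, 5.63 and 5.01 at day 2 and 6.58, 6.48, 6.24 and 6.52 at day 5. KO mice gave 5.76, 6.01, 5.50 and 5.67 in controls, 4.81, 4.09, 4.45 and 5.19 at day 2 and 6.37, 6.68, 6.50 and 6.63 at day 5. All 8 day 5 samples lay above all controls and above all day 2 samples, the latter true of 0.949% of all genes. The differences were -0.74 ± 0.17 at day 2 (adjusted p = 0.003), 0.89 ± 0.17 at day 5 (adjusted p = 0.000485) and 1.63 ± 0.17 from day 2 to day 5 (adjusted p = 7.26e-06). Of the 47 members, *Oas2* and *Irf8* were those that passed between the days, both higher at day 5. They are 4.26% of the members, while 3.28% of all genes passed and 2.24% were higher. Not one sample had the second *Oas2* probe well above background, and averaging it with the first ended each of the *Oas2* calls.

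*Oas1a* rose at both days. It read 8.11, 6.64, 6.71 and 7.59 in WT controls, 7.53, 7.62, 8.08 and 7.67 at day 2 and 8.39, 8.03, 8.13 and 7.88 at day 5. KO mice gave 7.73, 7.10, 7.21 and 7.30 in controls, 8.27, 7.91, 7.70 and 8.25 at day 2 and 7.98, 7.93, 7.96 and 8.04 at day 5. WT control replicate 1 reached into the lesioned range, and the difference was 0.58 ± 0.17 at day 2 (adjusted p = 0.0207, limma), against 0.74 ± 0.17 at day 5 (adjusted p = 0.00322). *Oas3* read 1.64, 3.07, 3.74 and 3.41 in WT controls and 4.70, 3.89, 2.99 and 4.02 at day 5, and in KO mice 3.07, 3.93, 3.84 and 2.41 in controls and 4.12, 4.14, 4.25 and 4.81 at day 5. Only 2 of the 8 day 5 samples and no control were well above background. With Edwards background correction *Oas3* was 1.70-fold higher at day 5, counted from the lowest signal above background (limma adjusted p = 0.0212). This size depended on the correction, since normexp with an offset gave a log2 difference of 0.15. The call was lost with loess normalization, with probes averaged, with the 3 high samples left out, and without WT day 5 replicate 1 or KO control replicate 4. The other effectors, among them *Ifit1*, *Ifit2*, *Ifit3*, *Rsad2*, *Bst2*, *Ifitm3* and *Eif2ak2*, did not pass at either day.

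**Figure D4:**
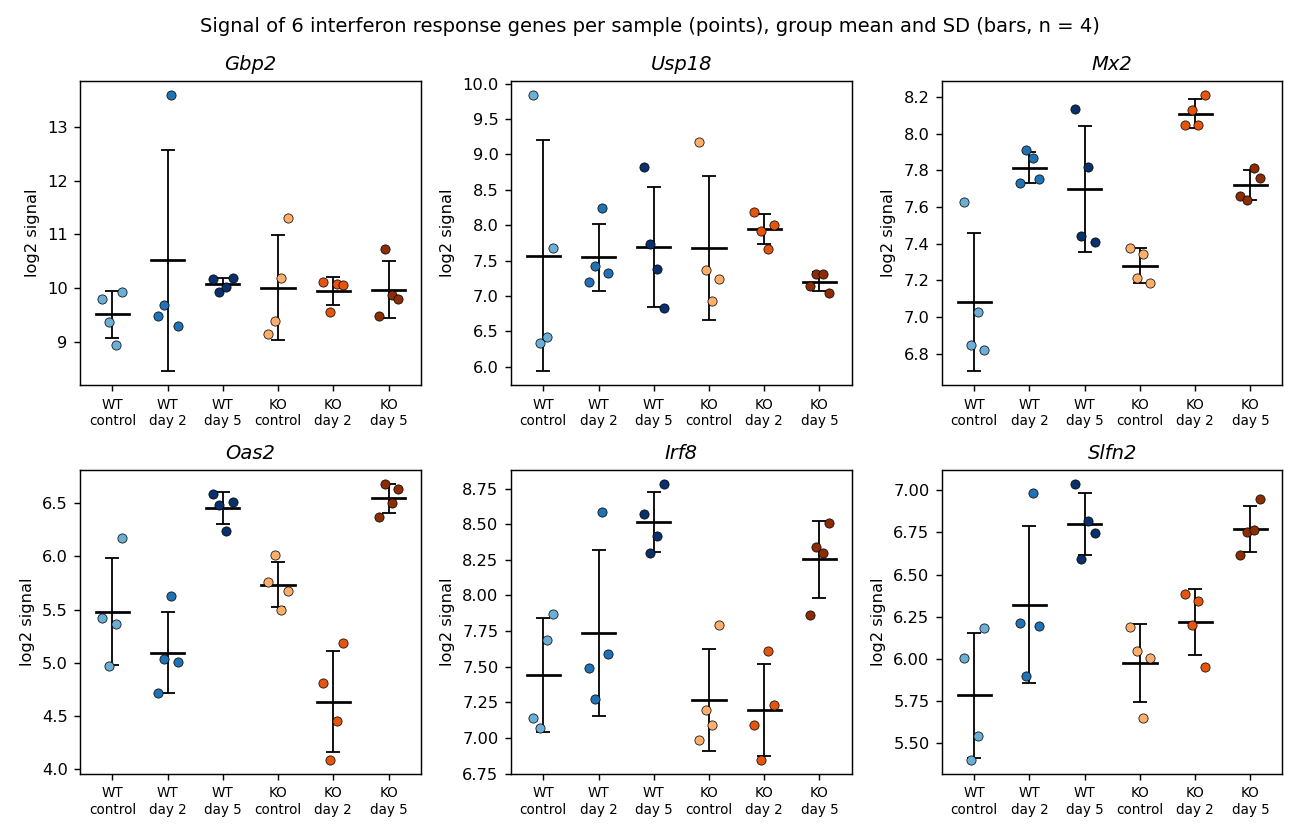
Points give the log2 signal of 6 members in each sample, with bars for the group mean and SD (n = 4). Gbp2 is far higher in WT day 2 replicate 3 than elsewhere, and Usp18 is highest in replicate 1 of each control group. Mx2 is higher in all day 2 samples than in all controls. The group mean of Oas2 is lowest in KO day 2, where samples overlap with WT day 2, and highest at day 5.

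None of the 6 interferon-inducible GTPases passed the test in any comparison with all samples. Apart from *Iigp1*, 5 of the 6 gave lesion differences under 0.5 in size at both days. The 95% interval of *Gbp2*, -0.51 to 1.46 at day 2, shows how little the samples could bound these genes with WT day 2 replicate 3 included. *Iigp1* cannot be read at day 5. The local background of its spot was 75486.5 against a foreground of 428 in KO day 5 replicate 1 and 3215.5 against 563 in WT day 5 replicate 3, which gave log2 values of -16.36 and -1.77, while the other 22 samples read 7.52 to 11.16. Without background correction these samples read 9.14 and 8.46.

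Of the Schlafen genes, which restrain proliferation of lymphocytes, *Slfn2* rose at day 5. It read 6.01, 5.40, 5.54 and 6.19 in WT controls, 7.04, 6.60, 6.82 and 6.75 in WT day 5, 6.19, 6.05, 5.65 and 6.01 in KO controls and 6.62, 6.75, 6.76 and 6.95 in KO day 5. All day 5 samples lay above all controls, as 5.56% of all genes did, with a difference of 0.91 ± 0.14 (limma adjusted p = 7.25e-05). *Slfn8* read 2.56, 2.13, 4.03 and 2.74 in WT controls and 3.13, 4.02, 3.03 and 3.96 in KO controls. It was well above background in no control and in 4 of the 8 day 5 samples, 3 of them WT. Counted from the lowest signal above background, it was 2.91-fold higher at day 5 than in controls in WT mice (limma adjusted p = 0.00372). Over both genotypes it was 1.91-fold higher (adjusted p = 0.00563). These folds do not allow for the spread between samples and are not lower limits of an interval. They hold for Edwards background correction, and normexp with an offset gave log2 differences of 0.24 in WT and 0.15 over both genotypes, still past the threshold. *Slfn5* did not pass by its brightest probe. Its second probe fell by 0.39 at day 2 and rose by 0.74 from day 2 to day 5, with no KO day 2 sample well above background.

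Antigen processing genes changed little. *B2m*, the light chain of MHC class I, was higher at day 5 by 0.40 ± 0.14 (limma adjusted p = 0.047). It read 12.68, 12.13, 12.35 and 12.78 in WT controls and 13.09, 13.06, 12.91 and 12.95 at day 5, without overlap, and in KO mice 12.83, 12.60, 12.59 and 12.55 in controls and 13.02, 13.10, 12.84 and 12.71 at day 5, with overlap. The call was lost in 15 of 24 fits that left out 1 sample. *Psmb8*, *Psmb9*, *Tap1* and *Tapbp* did not pass. *Tapbp*, which loads peptides on MHC class I, passed as lower at both days once WT day 2 replicate 3 was left out.

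Of the 5 other interferon-induced genes, 2 passed at day 2. *Xaf1*, a pro-apoptotic factor, read 8.91, 8.30, 8.40 and 8.87 in WT controls, 8.63, 8.93, 9.91 and 9.10 at day 2, and in KO mice 8.85, 8.59, 8.42 and 8.78 in controls and 9.48, 9.09, 8.75 and 9.25 at day 2. *Ifi35* read 9.99, 9.59, 9.06 and 9.57 in WT controls, 9.64, 9.88, 10.31 and 9.82 at day 2, and in KO mice 9.84, 9.38, 9.54 and 9.64 in controls and 10.32, 10.01, 9.84 and 9.96 at day 2. Both overlapped between groups. They were higher at day 2 by 0.50 ± 0.16 (limma adjusted p = 0.0271) and 0.39 ± 0.13 (adjusted p = 0.0297), and both calls were lost without WT day 2 replicate 3 (adjusted p = 0.0505 and 0.0684). *Ifi44*, *Parp9* and *Parp14* did not pass at either day.

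Leaving out WT day 2 replicate 3 gave 4 members at day 2 (*Mx2*, *Oas1a*, *Oas2* and *Tapbp*), where 20.9% of all genes passed, and 12 at day 5, where 23.6% passed. From day 2 to day 5 it gave 6, *Irf8*, *Zbp1*, *Oas2*, *Ifi47*, *Slfn2* and *Slfn5*, all higher at day 5, where 3.57% of all genes passed. Leaving out WT control replicate 1 and KO control replicate 1 as well gave 7, 13 and 6 members in these comparisons, where 17.8%, 21.2% and 3.35% of all genes passed, and 12 of the 13 were higher. These samples were chosen for their high values, so the counts are a description of what rests on them. Within slides 1, 2 and 3 the differences kept their sign for *Mx2* at day 2 (0.69, 0.93 and 0.95). So did those of *Oas2* from day 2 to day 5 (1.98, 2.21 and 1.62). At day 5 *Irf8* (1.20, 0.63 and 0.76) and *Slfn2* (0.85, 0.84 and 0.81) did so too. Some of these values come from 1 genotype alone, since no slide held all samples. They are KO values for *Mx2* on slide 1, *Oas2* on slides 1 and 2, and *Irf8* and *Slfn2* on slide 2. On slide 3 those of *Oas2*, *Irf8* and *Slfn2* are WT values. The only KO control on slide 2 was replicate 4, whose labels disagree on the day.

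In the 2 genotypes taken apart, with 4 against 4 samples, fewer members passed. In WT mice *Mx2* alone passed at day 2, where 11% of all genes did and 5.23% were higher. At day 5, 6 passed, all higher at day 5 (*Irf8*, *Mx2*, *Oas1a*, *Oas2*, *Slfn2* and *Slfn8*), where 13.9% did and 6.41% were higher. In KO mice *Mx2* (higher) and *Oas2* (lower) passed at day 2, where 11.8% did, 5.5% higher and 6.27% lower. *Irf8*, *Oas2* and *Slfn2* passed as higher at day 5, where 12.7% did and 6.06% were higher. These calls rested in part on single samples, since leaving out 1 sample ended that of *Oas2* in 6 of 24 fits, that of *Irf8* without KO control replicate 1 or KO day 5 replicate 4 and that of *Slfn2* without KO control replicate 3. The drop of *Oas2* at day 2 was 1.10 on the log2 scale in KO mice (limma adjusted p = 0.00445), with all 4 day 2 samples below all 4 controls. In WT mice the day 2 and control values overlapped, with a difference of -0.39 and a 95% interval of -0.88 to 0.11. A call in one genotype and not in the other is no difference between them, and that difference was tested directly.

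No interferon response gene differed between KO and WT mice by the adjusted test, in controls, at day 2 or at day 5, and none showed a time by genotype interaction. Over all genes 0%, 0.0146%, 0.0109% and 0% passed in these comparisons, and *Nfil3* itself, well above background in 1 of 4 KO controls and 4 of 4 WT controls, did not pass in controls (limma adjusted p = 1.00). The unadjusted p was under 0.05 for 1 of the 47 members in controls, *Mx1*, where 1.7% of all genes were, and for none at day 2, at day 5 or in the interaction, where 3.81%, 2.38% and 2.12% were. The 95% intervals are wide for the most variable members, so that the absence of a call does not show equal levels.

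The members with the smallest p between genotypes are described by their values. *Mx1* in controls read 4.99, 4.11, 4.65 and 4.39 in the WT and 4.32, 4.02, 4.18 and 3.37 in the KO samples, a difference of -0.56 with a 95% interval of -0.99 to -0.14 and a limma adjusted p of 1.00. Only 3 of these 8 samples were well above background. *Slfn8*, *Parp9* and *Zbp1* followed in controls. *Slfn8* was well above background in no control sample, so no difference is given. *Parp9* and *Zbp1* differed by 0.30 (interval -0.14 to 0.73) and 0.58 (-0.32 to 1.47). *Parp9* read 6.60, 5.98, 6.23 and 6.39 in WT and 6.54, 6.81, 6.65 and 6.38 in KO controls, with overlap.

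At day 2 the genes were *Irf8*, *Oas2*, *Ifit2* and *Mx2*. *Irf8* differed by -0.54 (interval -1.08 to 0.00), and its highest value was that of WT day 2 replicate 3. *Oas2* differed by -0.46 (interval -0.96 to 0.04). *Ifit2*, an RNA-binding effector, read 7.75, 7.75, 8.13 and 7.76 in the WT and 8.19, 8.63, 7.95 and 8.03 in the KO samples, a difference of 0.35 (interval -0.04 to 0.74). *Mx2* differed by 0.29 (interval -0.03 to 0.62, limma adjusted p = 1.00). At day 5 *Irf5* and *Slfn8* differed by -0.22 (interval -0.50 to 0.05) and -0.52 (-1.23 to 0.19). *Slfn8* read 4.26, 4.24, 4.29 and 4.84 in WT day 5 and 4.14, 3.91, 3.95 and 3.57 in KO day 5, at the edge of detection. *Oasl2* differed by -0.33 (-0.88 to 0.23), from 11.31, 10.87, 10.98 and 10.57 in WT to 10.54, 10.69, 10.76 and 10.44 in KO mice. *Ifitm3*, which blocks viral entry at membranes, differed by -0.29 (-0.87 to 0.29), from 12.24, 11.87, 11.62 and 11.91 to 11.47, 11.89, 11.57 and 11.54. For the interaction the smallest p-values were those of *Slfn8*, *Oas2*, *Ifit2* and *Tap1* (0.0588, 0.111, 0.162 and 0.223 unadjusted, limma). *Tap1*, which carries peptides into the endoplasmic reticulum, read 5.91, 5.41, 7.21 and 5.12 in WT day 2 and 5.39, 5.37, 5.13 and 5.42 in KO day 2, so that replicate 3 again gave the highest value.

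The genes upstream of the members were read from listed genes. Of 13 interferon genes on the array none was higher after lesion at either day. *Ifng* passed as lower at day 2 (limma adjusted p = 0.0484), with 1 of the 8 controls and no day 2 sample well above background, and 3 were well above background in no sample (*Ifna4*, *Ifnb1* and *Ifnk*). Of 10 receptor and JAK-STAT genes, *Il10rb* and *Jak2* rose at both days (by 0.34 and 0.37 at day 2, 0.43 and 0.44 at day 5), *Ifnar2*, a chain of the type I interferon receptor, rose at day 5 by 0.34, and *Jak1* fell at day 2. Of 17 sensors and adaptors 4 rose and 1 fell at day 2, and 7 rose and 2 fell at day 5. Beside these and the receptor genes, 22.1% of all genes passed at day 2 and 23.2% at day 5, with 9.48% and 10.2% higher. *Tmem173* (STING), the adaptor of cytosolic DNA sensing, rose by 1.66 at day 2 and 1.28 at day 5. *Tlr7*, an endosomal RNA sensor, rose by 1.52 at day 5 and *Unc93b1*, which brings such receptors to endosomes, by 1.09 at day 5. Each had all lesioned samples of that day above all controls, as 3.77% of all genes did at day 2 and 5.56% at day 5.

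Of 50 other interferon-induced genes 6 rose and 4 fell at day 2, and 7 rose and 6 fell at day 5, where 22.1% and 23.2% of all genes passed in either direction. *Socs1*, an inhibitor of JAK kinases, rose by 0.82 at day 2 and 0.53 at day 5. *Ifi204* rose by 0.62 and 1.18, and *Cmpk2*, which neighbours and is co-induced with *Rsad2*, fell by 0.84 and 0.95 on the log2 scale. Of 13 further MHC class I pathway genes none passed at day 2 and *Erap1* alone, lower, at day 5.

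Markers of macrophages moved with the lesion beside these results. For each marker list below, the share of all genes that passed in either direction was 22.1% at day 2 and 23.2% at day 5. Of 20 listed macrophage markers 12 rose at day 2 and all 20 at day 5, with median differences of 0.66 and 1.70. Their mean log2 level per sample was 7.95 to 8.60 in WT controls and 9.80 to 10.15 in WT day 5, and 8.0 to 8.52 in KO controls and 9.61 to 9.97 in KO day 5. The median level of the 47 members against the control mean was -0.41 to 0.39 in WT controls and -0.01 to 0.52 in WT day 5, with overlap. Of 17 T and NK cell markers none passed at day 2 and *Nkg7*, *Klrd1* and *Gzmb* rose at day 5. Of 8 markers of plasmacytoid dendritic cells and neutrophils none passed. Of 15 sensory neuron markers 10 fell at day 2, and 11 fell and 1 rose at day 5. Of 11 satellite glia and Schwann cell markers 4 rose and 2 fell at day 2, and 2 rose and 2 fell at day 5. Of 5 B cell markers *Cd79b* rose at both days and *Cd22* at day 5, and of 7 endothelial markers *Pecam1* rose at day 2. The part of macrophages in the changes of *Irf8*, *Irf5*, *Slfn2* and the other members was not tested.

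**Figure D5:**
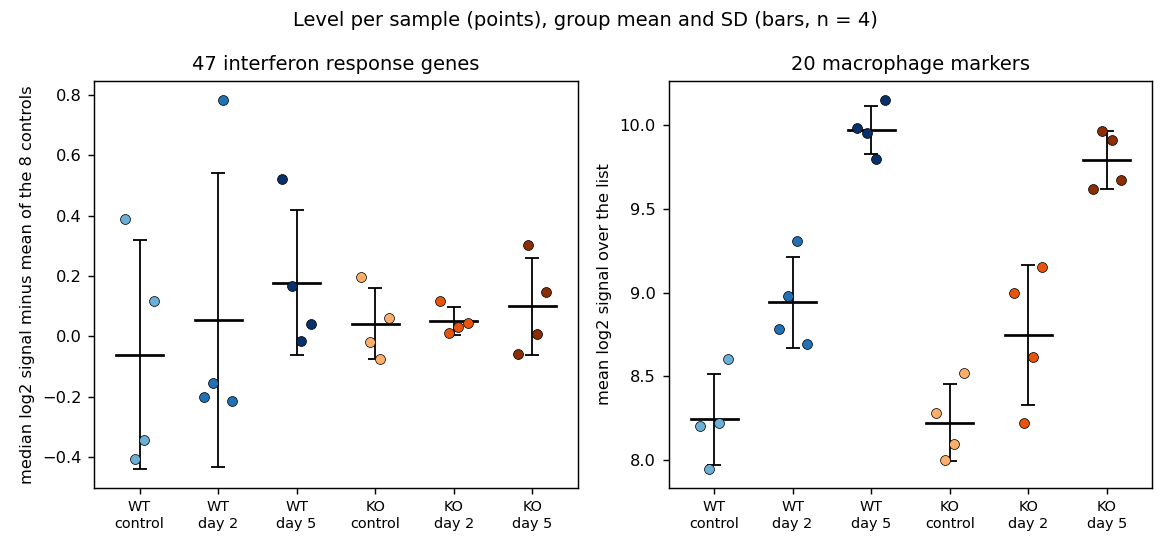
Points give, per sample, the median over the 47 members of the log2 signal minus the control mean (left) and the mean log2 signal of 20 macrophage markers (right), with bars for the group mean and SD (n = 4). The members overlap between control and day 5 samples, whereas the macrophage markers lie at 7.95 to 8.60 in controls and at 9.61 to 10.15 at day 5.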

How the data were processed

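The authors deposited the output of Agilent Feature Extraction 10.7.3.1 for 12 two-channel arrays, in which each channel is 1 sample, with foreground and background intensity per spot, not normalized, and flags (score values) for outliers and signal over background. As in the study's methods, limma 3.58.1 in R 4.3.3 was used for Edwards background correction and quantile normalization over 24 channels. Outlier spots were set to missing (417 probe values) and spots of a probe averaged. Group means were fitted with lmFit and eBayes, with Benjamini-Hochberg adjustment over 41174 probes (threshold 0.05). The members and all gene lists were chosen with earlier results of these data known. Values per sample are given for the 6 highest and 4 lowest changes past the threshold after lesion, the 4 smallest p per genotype comparison and the interaction, and Irf1, Irf7, Irf8, Irf9 and Stat2. Gbp2, Igtp, Irgm1, Usp18, Ifit1 and Iigp1, and the 3 samples left out in an added fit, were chosen after their values were seen. Replicates are separate samples by their labels. Whether same-numbered samples share an animal is not stated, and p-values measure the spread between these samples. A fold against a group nowhere well above background is counted from the lowest signal above background and does not allow for the spread between samples. Scripts were tested on simulated data. Probe positions are mm9, promoters GRCm38.p6. Results of 1 listed gene are not reported here.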

Additional observations from a re-analysis of the deposited data

Results flagged for a closer look

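Dixon's test for a value far from the other 3 of its group was run for 29 named genes in 6 groups. It marked 17 of 174 sets, and 30 of 280 over all members. For 1 set alone chance gives a mark about 1 time in 20. Some named genes, among them *Gbp2*, *Igtp* and *Iigp1*, were chosen after their values were seen. The sets share samples and are not independent, so these counts are a description and cannot be set against that rate. WT day 2 replicate 3 stood high for *Gbp2* (13.60), *Igtp* (13.58), *Irf1* (12.11), *Oasl2* (11.22), *Irf9* (9.22), *Zbp1* (8.59) and *Ifit2* (8.13). KO control replicate 1 stood high for *B2m* (12.83), *Oasl2* (11.37) and *Stat2* (10.89), and KO control replicate 4 for *Zbp1* (7.76). KO day 2 replicate 2 stood apart for *Gbp2* (9.55, low) and *Igtp* (11.44, high), where the group's other samples lay close together. *Slfn8* stood high in WT day 5 replicate 4 (4.84) and *Mx1* low in WT day 2 replicate 2 (3.69), both near background. *Iigp1* stood low in WT day 5 replicate 3 (-1.77) and KO day 5 replicate 1 (-16.36), the samples whose local background exceeded the foreground.

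For *Mx1* at day 5 every WT sample lay below the mean of the WT controls and every KO sample above that of the KO controls. The changes differed by 0.38 on the log2 scale, and limma's time by genotype interaction had an adjusted p of 1.00. The gene was well above background in 8 of 24 samples.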

How the results depend on the processing

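Of the called values of single members, 1080 of 1147 alternative values kept direction and call. Mx2 at both days, and Irf8, Slfn2 and Slfn8 at day 5 over both genotypes, were called in each alternative fit and each fit without 1 sample. Slfn8 at day 5 was reversed within slide 2 (-0.22), a value from KO samples alone with KO control replicate 4 as the only control. With Feature Extraction's processed signals 5 members passed in KO day 5 against KO control (3 as reported). With WT day 2 replicate 3 and both high control replicates left out, chosen after seeing the data, 6 passed from day 2 to day 5 (2 as reported). With 1 sample left out at a time, the members called ranged from 3 to 6 at day 2 and 7 to 12 at day 5 over both genotypes, 2 to 6 from day 2 to day 5, 1 to 3 in WT day 2 and 4 to 8 in WT day 5, 2 to 3 in KO day 2 and 1 to 5 in KO day 5. The samples behind shifts of over 1.5 times were WT control replicates 1, 3 and 4, WT day 2 replicates 3 and 4, KO control replicates 1 and 3, KO day 2 replicate 1 and KO day 5 replicate 4. Between genotypes and for the interaction every alternative gave 0, with a lowest adjusted p of 0.675 (limma). The other alternatives (background correction, normalization, foreground, filter, dye, slide, array, probes averaged, moderation, and background flags, the last also chosen after seeing the data) gave 4 to 6 members at day 2 and 6 to 12 at day 5.

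For same-numbered samples of different groups, r between their deviations was -0.06 to 0.20 over 60 pairs, 13 of them over 0.1. The highest was that of WT control replicate 1 and WT day 5 replicate 1. Differently numbered samples were not compared, so these values cannot show whether the numbers pair samples. The numbers were not taken to pair samples. With the replicate number as a block the counts were 5, 9 and 2 over both genotypes, 1, 6, 2 and 3 within genotypes, and 0 between them, as without it. B2m at day 5 lost its call there (limma adjusted p = 0.0627), and another member took its place in the count.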
